A study of Homo sapiens with 24 samples.

Results

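The 54 genes described here encode proteins that build the mitotic spindle, tie chromosomes to it, delay division until that is done, and fold and untangle the chromosomes. They were chosen by name, as the rows of the gene count table whose Ensembl identifier maps to 1 of 54 listed symbols. They make up 54 of its 60668 rows, and all 54 passed the filter on low counts that left 22158 genes for testing. The study sequenced polyadenylated RNA from MCF-10A, a human breast epithelial line that is immortal but not tumorigenic, and from MCF-10A MYC-ER. The genotype of the former is labelled wild-type, and it is called parental here. In MYC-ER the transcription factor MYC is fused to an oestrogen receptor domain, so that 4-hydroxytamoxifen (4-OHT) can switch it on. The promoter that drives the fusion, the species of its parts and whether the line is 1 clone are not given in the sources used here. Both lines were grown in 3D on Matrigel from 10000 cells per well, and both received 1 µM 4-OHT for 0, 8, 24 or 48 h. Collection is listed as day 5 and the start of treatment as day 3 for every group, also for the shorter times. Day 3 is read here as the start of the longest treatment, with every treatment ending at collection. Each of the 8 groups of line and time has 3 replicates. The protocol speaks of triplicate wells and names no separate cultures, so p-values here measure the spread between these libraries, which may be technical. The comparisons ask how these genes change once the fusion is active, and the parental cells show what 4-OHT does without it.

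Mitosis begins when cyclin B and its kinase CDK1 become active. Microtubules then capture each chromosome at its kinetochore, and the spindle checkpoint blocks the anaphase-promoting complex until every kinetochore is attached. Release of that block destroys securin and cyclin B, separase cuts the rings that join sister chromatids, and kinesins and midzone proteins drive the sisters apart and divide the cell. Most of these genes are transcribed late in the cell cycle. Many of their promoters hold a short element, the cell cycle genes homology region (CHR), with CCAAT boxes upstream of it, through which the DREAM and MYB-MuvB complexes are known to act.

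Promoter entries of RefSeq (GRCh38.p14, 250 bases before to 50 after each annotated start) matched 46 of the 54 genes, with 56 entries. The CHR letters TTTGAA, which read TTCAAA on the other strand, stood in 37 of the 56 entries (66.1%), against 15.2% of all 35116 promoter entries and 11.1% of the 18900 entries of genes tested. CCAAT, which reads ATTGG on the other strand, stood in 71.4% of the entries of these genes against 34.6% of all, and both motifs in 28 of the 56 entries, against 5.9% of all. CACGTG, the E-box bound by MYC with MAX, stood in 8.9% against 7.3% of all entries and 8.9% of those of genes tested. A CCAAT and a CHR match can share an end letter. A match is a run of letters and not a measured binding site. A CHR within 40 bases before it was found in 32.1% of the entries of these genes and in 1.8% of all entries. The 8 promoters below are shown because their genes carry a CHR within 60 bases before the start and differ in their change at 8 h of 4-OHT, the first 4 having the highest and the last 4 the lowest log2 changes among 19 such genes. Each is the 100 bases before the annotated start on the gene's strand, with the CHR and CCAAT letters in capitals.
ESPL1, chr12:53268199-53268298 (+): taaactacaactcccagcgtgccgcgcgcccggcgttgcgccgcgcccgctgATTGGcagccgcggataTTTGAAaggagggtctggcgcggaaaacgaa
BUB1B, chr15:40160969-40161068 (+): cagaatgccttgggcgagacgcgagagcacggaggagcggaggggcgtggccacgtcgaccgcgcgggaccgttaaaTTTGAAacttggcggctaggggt
CENPA, chr2:26785956-26786055 (+): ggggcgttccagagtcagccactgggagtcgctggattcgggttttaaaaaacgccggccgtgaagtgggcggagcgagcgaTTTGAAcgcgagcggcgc
KIF23, chr15:69414249-69414348 (+): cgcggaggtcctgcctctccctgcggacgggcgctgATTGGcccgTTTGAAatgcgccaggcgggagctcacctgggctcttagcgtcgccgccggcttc
CDC25C, chr5:138331805-138331904 (-): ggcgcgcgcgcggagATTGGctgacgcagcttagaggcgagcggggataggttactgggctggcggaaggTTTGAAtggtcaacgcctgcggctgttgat
KIF4A, chrX:70290004-70290103 (+): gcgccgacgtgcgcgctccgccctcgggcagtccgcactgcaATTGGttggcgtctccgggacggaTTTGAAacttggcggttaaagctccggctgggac
KIF11, chr10:92593030-92593129 (+): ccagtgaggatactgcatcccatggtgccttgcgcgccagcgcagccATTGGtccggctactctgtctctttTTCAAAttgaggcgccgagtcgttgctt
CDK1, chr10:60778378-60778477 (+): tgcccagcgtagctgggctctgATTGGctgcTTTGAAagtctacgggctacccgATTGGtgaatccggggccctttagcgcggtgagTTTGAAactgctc
The CHR nearest the start began 31 bases before it in ESPL1, 23 in BUB1B, 18 in CENPA and 55 in KIF23, and 30, 34, 28 and 13 bases before it in CDC25C, KIF4A, KIF11 and CDK1. A CCAAT box lay in this stretch in 6 of the 8. These were ESPL1 and KIF23 of the first 4, where BUB1B and CENPA had none, and all of the last 4. The 8 h changes of CDC25C, KIF4A and CDK1 are uncertain, as given below.

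**Figure D1:**
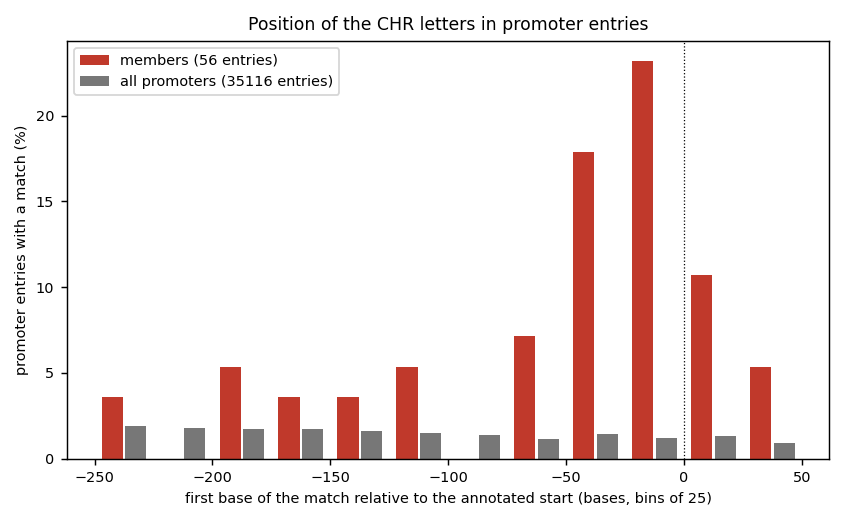
Share of promoter entries (y, in %) with the CHR letters on either strand, by the position of the match relative to the annotated start (x, bases, in bins of 25), for the 56 entries of the 46 matched genes (red) and all 35116 entries (grey). The red bars are tallest in the last bins before the start, at 17.86% and 23.21%, where the grey bars are at 1.43% and 1.17%.

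Levels below are in CPM, which are counts relative to a library total scaled by TMM. A change is a log2 ratio of group means from edgeR's quasi-likelihood test, with adjusted p-values taken over all 22158 genes and a threshold of 0.05. Library totals ran from 136860029 to 182438505 counts. The MYC row, which may also hold reads of the fusion, had a mean of 387 CPM before 4-OHT in MYC-ER cells, 795 after 8 h, 321 after 24 h and 248 after 48 h. Its parental means were 463 to 532 CPM. Epithelial markers (KRT5, KRT14, TP63, EGFR, CDH1, EPCAM, KRT8 and KRT18) summed to 14059 to 14575 CPM in MYC-ER cells before 4-OHT, to between 9119 and 10223 CPM after 24 and 48 h, and to 15921 to 25994 CPM in parental cells. Most of the sum in MYC-ER cells was KRT5, with means of 12528 CPM at 0 h and 6922 at 48 h. Not all of the list fell. Between the same times KRT8 went from 121 to 219 CPM and KRT18 from 97.0 to 214, while TP63 stood at 141 and 139. Within that list KRT14 stood at a mean of 626 CPM in MYC-ER cells at 0 h, 6.43% of the parental level, and EPCAM went from 1.93 CPM at 0 h to 75.8 at 24 h. The part of these markers in the results below was not tested. The fibroblast list summed to 370 to 377 CPM in MYC-ER cells at 0 h, through COL1A1 and DCN, against 77.3 to 133 CPM in the other groups, while COL1A2 reached at most 0.0573 and LUM 0.304 CPM in any library, and the part of this in the changes from 0 h was not tested. CDH5 and CD3E, markers of endothelial and T cells, were at 0 in every library and PTPRC, a marker of immune cells, at 0.0124 CPM or less. The endothelial list summed to at most 2.32 CPM, and CD14, a marker of monocytes, reached at most 9.03 CPM. The 3 parental 0 h libraries differed from each other more than those of any other group, with a chi-square per degree of freedom of 159 to 261 against 8.45 to 63.3. These are bulk samples, in which fewer cells of a kind and less RNA per cell cannot be told apart.

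In MYC-ER cells, RNA of the whole set stood low before 4-OHT, changed in both directions within 8 h, reached its highest level at 24 h and fell back part of the way by 48 h. Summed over the 54 genes, the level went from 466 ± 8.88 CPM at 0 h to 645 ± 10.5 after 8 h, 5628 ± 101 after 24 h and 1902 ± 59.6 after 48 h (mean ± SD, n = 3). In parental cells the sum stayed between 3466 ± 204 and 4445 ± 40.6 CPM (n = 3) across the same times. All 54 genes were called higher at 24 h than at 0 h in MYC-ER cells, where 30.4% of all genes tested were called higher, and the median log2 change was 5.46 against -0.02 over all genes. The rise was at least 1 on the log2 scale for 53 genes, at least 4 for 34 and at least 6 for 19. The share of all genes at these cuts is not given here. From 24 h to 48 h all 54 were called lower (25.5% of all genes), with a median of -1.63 against 0.06. Even so, all 54 were still called higher at 48 h than at 0 h (23.4% of all genes), with a median of 3.58 against 0.03, and the 48 h level was 17.7% (SPC25) to 65.3% (BUB3) of the 24 h level. For all 54 genes the 3 libraries at 24 h stood above the 3 at 0 h with no overlap, as they did for 34.2% of all genes tested. The same held for all 54 at 48 h against 0 h (31.9% of all genes) and at 24 h against 8 h (33.4%), and, in the lower direction, at 48 h against 24 h (31.6%).

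**Figure D2:**
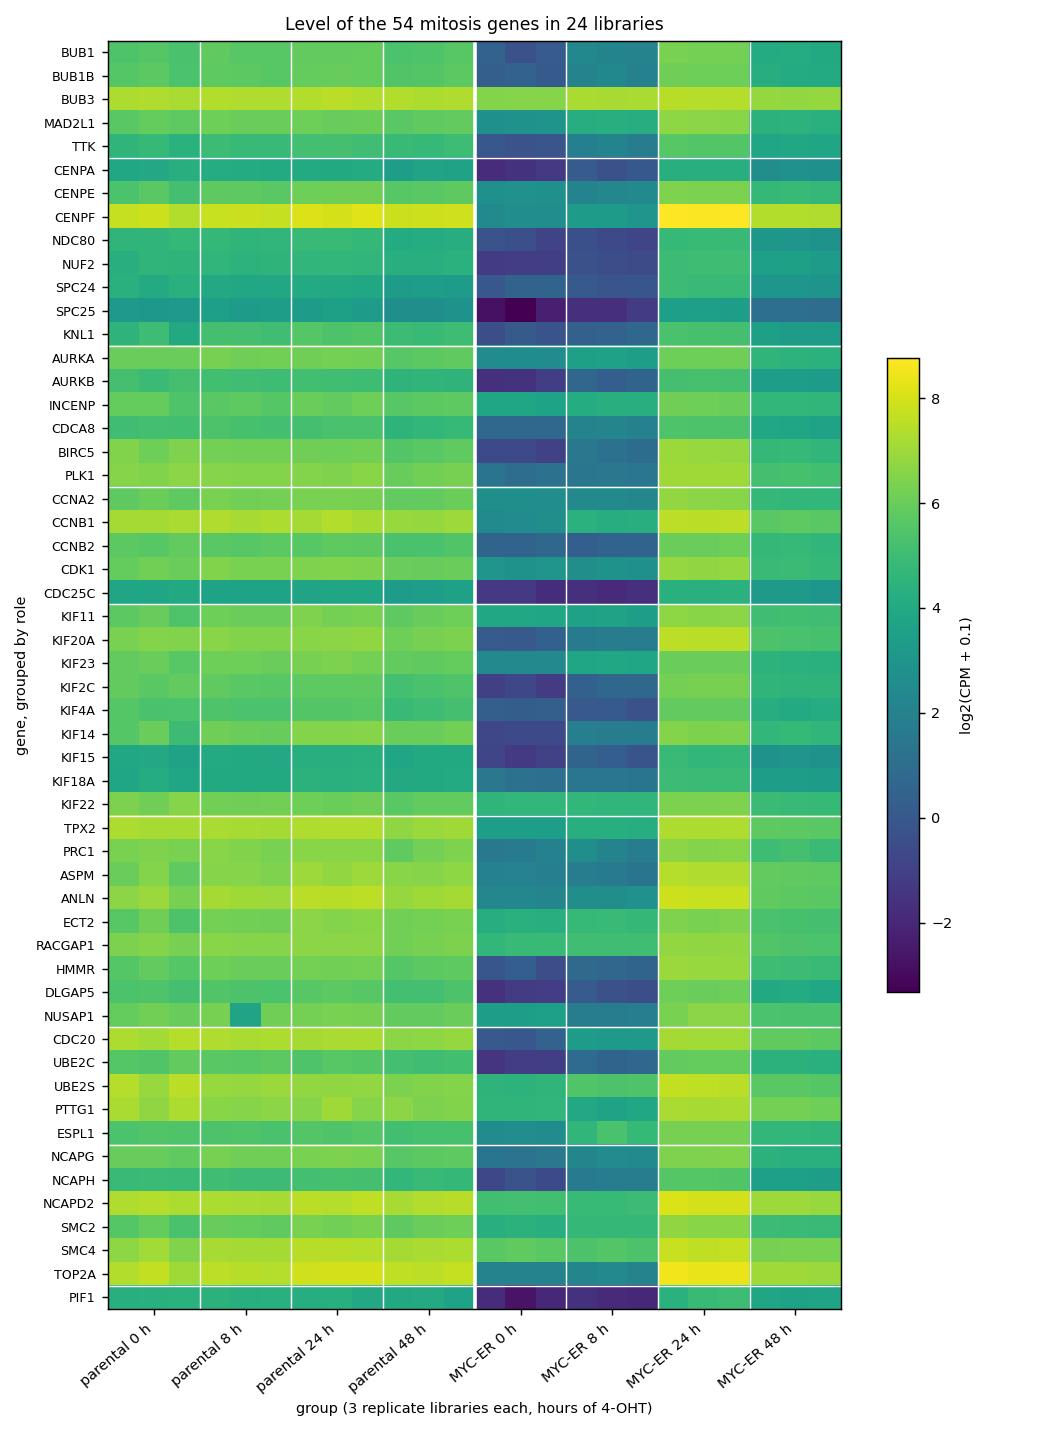
log2(CPM + 0.1) of the 54 genes (rows, grouped by role) in the 24 libraries (columns, 3 per group, with time in hours of 4-OHT). The 0 h and 8 h MYC-ER columns are dark for most genes, the 24 h columns reach the brightness of the parental columns, and a darker cell among the parental columns is NUSAP1 at 8 h in replicate 2, at 13.4 CPM.

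The spindle checkpoint genes rose at every time in MYC-ER cells. BUB1 and TTK are kinases that load the checkpoint onto unattached kinetochores, and BUB1B, BUB3 and MAD2L1 are parts of the complex that holds back CDC20. All 5 were called higher at 8, 24 and 48 h, with a median log2 change of 1.89, 5.86 and 3.92. Of all genes tested, 32.2%, 30.4% and 23.4% were called higher at these times. BUB1 had the largest rise at 24 h. It stood at 1.28, 0.697 and 1.02 CPM in the 0 h libraries, 4.88, 4.26 and 4.10 at 8 h, 80.3, 75.6 and 76.2 at 24 h and 17.0, 17.6 and 15.9 at 48 h (log2 change 6.28, SE 0.15, adjusted p = 2.65e-19 for 24 h). BUB3 had the smallest rise of the whole set at 24 h. It went from 92.8, 94.5 and 93.6 CPM at 0 h to 148, 146 and 148 at 8 h, 175, 174 and 174 at 24 h and 115, 112 and 115 at 48 h. The BUB3 change at 24 h on the log2 scale was 0.90, with an SE of 0.043 and adjusted p = 5.97e-14. The BUB3 groups did not overlap, and its 0 h level was already 60.6% of the parental level, where the median over the 54 genes was 3.99%. MAD2L1 rose from a mean of 7.22 CPM to 19.0 at 8 h and 102 at 24 h, and TTK from 0.810 to 3.76 and 47.0 CPM.

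All 8 centromere and outer kinetochore genes were higher at 24 h, but at 8 h the calls differed between subunits of the same complex. CENPA is the histone that marks the centromere, CENPE and CENPF bind microtubules, KNL1 is a scaffold for checkpoint proteins, and NDC80, NUF2, SPC24 and SPC25 form the NDC80 complex, the main coupler of kinetochore and microtubule. At 8 h, 5 were called higher and CENPE and SPC24 lower (32.2% and 35.4% of all genes), and NDC80 did not pass. SPC25 had the largest rise at 24 h and the lowest level per length before 4-OHT, with 0.0464, 0 and 0.111 CPM at 0 h, the middle library having no counts, which allows a level of up to 0.0170 CPM (counting error only). It stood at 0.224, 0.220 and 0.347 CPM at 8 h, 11.3, 11.1 and 10.8 at 24 h and 2.01, 2.01 and 1.88 at 48 h (log2 change 7.71, SE 0.34, adjusted p = 1.15e-14 at 24 h). Its partner NUF2 was also higher at 8 h, at 0.687, 0.646 and 0.594 CPM against 0.342, 0.357 and 0.374. The NUF2 change at 8 h on the log2 scale was 0.84, with an SE of 0.11 and adjusted p = 5.06e-07. SPC24 was lower at 8 h, at 0.933, 0.816 and 0.827 CPM against 0.876, 1.32 and 1.37 at 0 h (log2 change -0.47, SE 0.12, adjusted p = 0.00229), with 1 library of each group inside the other's range, and its call was lost in a fit of only the groups compared (adjusted p = 0.0760). In parental cells SPC24 was also called lower at 8 h, at 15.4, 14.5 and 15.1 CPM against 20.1, 16.5 and 20.3. The difference between the lines in its 8 h change did not pass. NDC80 stood at 0.754, 0.663 and 0.455 CPM at 0 h and 0.680, 0.532 and 0.474 at 8 h, and its groups overlapped. At 24 h these 4 subunits stood close together per length, at 12.9 CPM per kilobase for NDC80, 15.9 for NUF2, 12.9 for SPC24 and 8.18 for SPC25. CENPE, the kinesin of the kinetochore, had the smallest 24 h rise of the group. It read 6.64, 6.83 and 6.64 CPM at 0 h, 4.34, 4.70 and 5.17 at 8 h, 85.9, 84.3 and 84.1 at 24 h and 26.6, 29.1 and 26.7 at 48 h, all of the 8 h libraries lying below those at 0 h (log2 change -0.50, SE 0.094, adjusted p = 6.88e-05 at 8 h and log2 change 3.66, SE 0.097, adjusted p = 1.93e-18 at 24 h).

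The kinases AURKA, AURKB and PLK1 and the chromosomal passenger subunits INCENP, CDCA8 and BIRC5, which place Aurora B at centromeres, were all called higher at all 3 times, with group medians of 1.20, 5.33 and 3.59. BIRC5, which encodes survivin, had the largest rise of the 54 genes at 24 h, from 0.557, 0.527 and 0.426 CPM at 0 h through 2.80, 2.17 and 1.81 at 8 h to 124, 119 and 117 at 24 h, and then 26.4, 26.9 and 24.9 at 48 h. The BIRC5 change at 24 h on the log2 scale was 7.89, with an SE of 0.15 and adjusted p = 6.64e-21. The 24 h level of BIRC5 was 238 times the 0 h level. INCENP, the scaffold of the same complex, had the smallest rise of the group, from 13.8, 14.2 and 12.8 CPM to 17.8, 19.7 and 18.9 at 8 h, 70.4, 68.5 and 67.2 at 24 h and 25.5, 25.5 and 24.6 at 48 h. The INCENP change at 24 h on the log2 scale was 2.34, with an SE of 0.099 and adjusted p = 6.64e-15. The log2 changes of AURKB and CDCA8, the other members of that complex, lay between them, at 7.05 and 4.73. PLK1 rose least at 8 h, with 2.55, 2.70 and 2.61 CPM against 2.42, 1.91 and 2.22. The PLK1 change at 8 h on the log2 scale was 0.26, with an SE of 0.093 and adjusted p = 0.0172. This call ended with library size as the scaling, with only the groups compared, with a GC trend removed and without MYC-ER 0 h replicate 2 or MYC-ER 8 h replicate 2, and the sign turned, to -0.01, when trends with GC content and length were removed.

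Mitotic cyclins and CDK1 were the group least raised at 8 h, with a median of -0.17, and all 5 rose at 24 h, with a median of 5.04. CCNB1, the cyclin of mitotic entry, was called higher at 8 h. It stood at 5.32, 5.53 and 6.22 CPM at 0 h and 20.8, 18.2 and 19.5 at 8 h, then 188, 185 and 189 at 24 h (log2 change 1.78, SE 0.071, adjusted p = 1.92e-15 at 8 h). Its close relative CCNB2 read 1.40, 1.33 and 1.54 CPM at 0 h and 1.17, 1.33 and 1.38 at 8 h, which overlap, before 66.3, 64.2 and 68.1 at 24 h. CCNA2, the cyclin of S phase and early mitosis, was lower at 8 h, at 5.15, 5.04 and 4.76 CPM against 6.45, 6.31 and 6.05 with no overlap (log2 change -0.33, SE 0.070, adjusted p = 2.55e-04), and reached 111, 100 and 99.6 at 24 h. CDK1 had the smallest 24 h rise of the group. Its 8 h libraries read 6.11, 7.23 and 6.66 CPM against 7.77, 7.0 and 7.77 at 0 h, which overlap (log2 change -0.17, SE 0.074, adjusted p = 0.0459), and the libraries that followed read 114, 109 and 114 at 24 h and 29.4, 29.7 and 26.5 at 48 h (log2 change 3.90, SE 0.078, adjusted p = 1.79e-20 at 24 h). The 8 h call of CDK1 was lost with DESeq2's size factors, with its Wald test (adjusted p = 0.121), with no filter on low counts and with only the groups compared, and without MYC-ER 0 h replicate 1 or 3 or MYC-ER 8 h replicate 1 or 3. CDC25C, the phosphatase that switches CDK1 on, had the largest 24 h rise of the group, reading 0.302, 0.301 and 0.199 CPM at 0 h, 0.217, 0.184 and 0.207 at 8 h, 20.3, 20.1 and 20.9 at 24 h and 8.84, 8.94 and 8.02 at 48 h (log2 change 6.25, SE 0.12, adjusted p = 1.65e-20 at 24 h). At 8 h it did not pass, with an adjusted p of 0.0601.

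**Figure D3:**
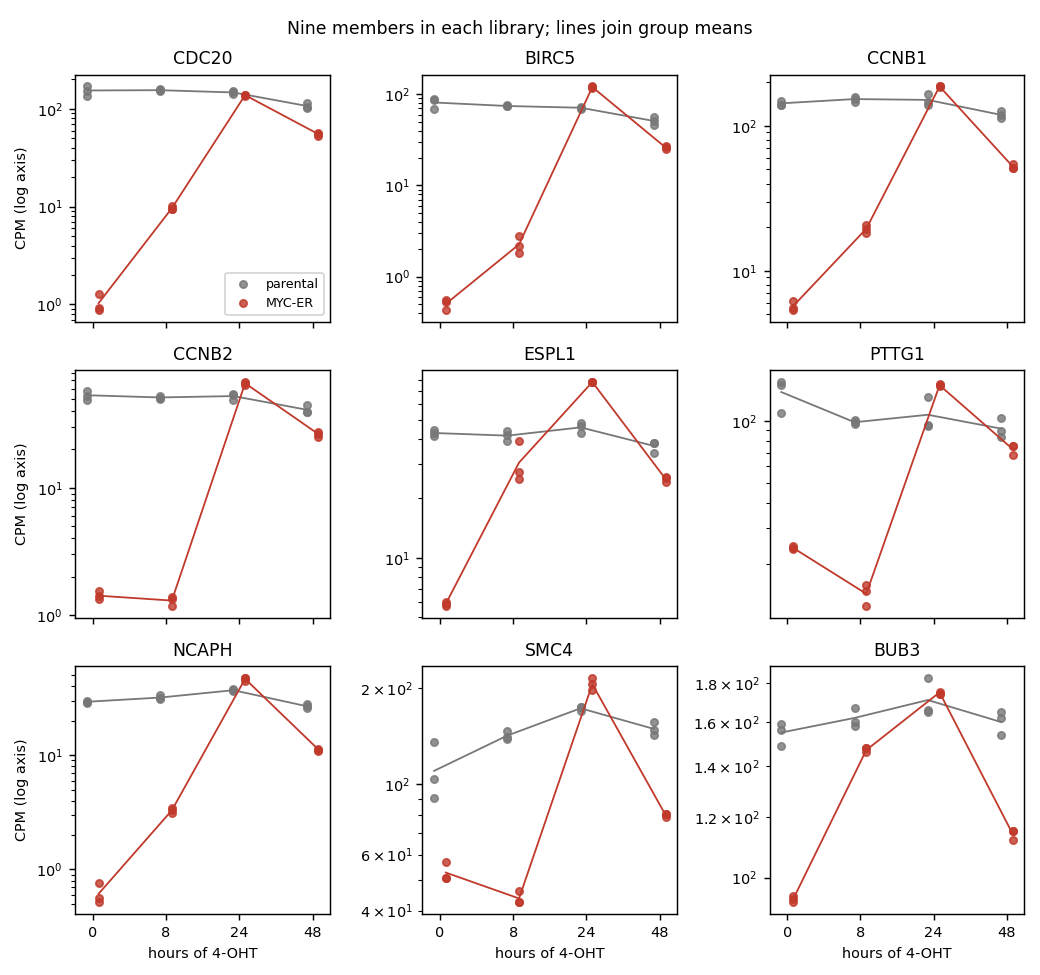
CPM on log axes, which differ between panels, for 9 of the genes in each library at 0, 8, 24 and 48 h of 4-OHT (time points spaced evenly), parental in grey and MYC-ER in red, with lines through group means. At 8 h the MYC-ER values of CDC20, BIRC5, CCNB1, ESPL1, NCAPH and BUB3 lie above their 0 h values, those of PTTG1 and SMC4 lie below, and CCNB2 overlaps.

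The 9 kinesins, motors that slide, depolymerise or follow spindle microtubules, were all higher at 24 h, with a median of 5.68. At 8 h, 5 were called higher and 2 lower, where 32.2% and 35.4% of all genes were. KIF14, which acts in the last step of cell division, had the largest 8 h rise of them, from 0.505, 0.544 and 0.531 CPM to 3.48, 3.34 and 3.31. The KIF14 change at 8 h on the log2 scale was 2.68, with an SE of 0.20 and adjusted p = 9.50e-11. KIF2C, which takes microtubules apart at centromeres, had the largest 24 h rise, with 0.394, 0.510 and 0.350 CPM at 0 h, 1.24, 1.54 and 1.55 at 8 h, 76.3, 78.4 and 77.5 at 24 h and 23.8, 23 and 23.2 at 48 h. The KIF2C change at 24 h on the log2 scale was 7.53, with an SE of 0.11 and adjusted p = 1.76e-22. KIF20A and KIF23, motors of the midzone, rose by 1.61 and 1.52 at 8 h. Lower at 8 h were KIF11, the motor that pushes spindle poles apart, at 11.9, 12.4 and 10.6 CPM against 14.4, 15.0 and 14.3 (log2 change -0.32, SE 0.096, adjusted p = 0.00502), and KIF4A, a chromosome-arm motor, at 0.940, 0.979 and 0.707 against 1.15, 1.10 and 1.15. The KIF4A change at 8 h on the log2 scale was -0.37, with an SE of 0.11 and adjusted p = 0.00545. Neither pair of groups overlapped. The KIF4A call was lost with only the groups compared and without MYC-ER 8 h replicate 3 (adjusted p = 0.0611). KIF18A read 2.65, 2.17 and 2.01 CPM at 0 h and 2.61, 2.62 and 2.53 at 8 h, and KIF22 24.3, 25.2 and 25.3 and 25.6, 24.6 and 24.5, and both overlapped. KIF22, which binds DNA, had the smallest rise of the kinesins, to 84.4, 84.5 and 86.5 CPM at 24 h (log2 change 1.77, SE 0.074, adjusted p = 4.89e-15), and at 48 h it was back near its start at 30.0, 29 and 27.1 CPM (log2 change 0.20, SE 0.072, adjusted p = 0.0278), a call that leaving out any 1 of 5 of the 6 libraries ended (adjusted p = 0.0528 to 0.115), the exception being MYC-ER 48 h replicate 3.

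Spindle assembly, midzone and cytokinesis genes were all higher at 24 h (9 of 9, median 4.89). DLGAP5, which stabilises spindle fibres at kinetochores, rose most, from 0.232, 0.335 and 0.362 CPM at 0 h to 1.01, 0.688 and 0.647 at 8 h and 68.0, 63.9 and 69.6 at 24 h, with 16.1, 17.1 and 15.1 at 48 h. The DLGAP5 change at 24 h on the log2 scale was 7.76, with an SE of 0.14 and adjusted p = 5.57e-21. RACGAP1, a partner of KIF23 in the midzone, rose least, from 25.9, 29.1 and 28.6 CPM to 33.5, 32.9 and 32.8, 112, 107 and 112 and 45.0, 41.6 and 40.4 at 8, 24 and 48 h (log2 change 1.99, SE 0.059, adjusted p = 1.54e-17 at 24 h). ECT2, the exchange factor that starts furrowing, and ANLN, the scaffold of the contractile ring, were called higher at 8 h by 0.50 and 0.46. Both were also called higher in parental cells at 8 h. ASPM, a protein of spindle poles, was lower at 8 h, with 3.33, 3.01 and 2.53 CPM against 3.85, 3.96 and 3.63 and no overlap. The ASPM change at 8 h on the log2 scale was -0.37, with an SE of 0.13 and adjusted p = 0.0207. The ASPM call was lost without MYC-ER 0 h replicate 2 or MYC-ER 8 h replicate 3, with adjusted p-values of 0.0596 and 0.120. NUSAP1, a microtubule bundler, had the deepest fall of the set at 8 h, to 3.29, 3.38 and 3.50 CPM from 10.4, 10.6 and 11.3 at 0 h (log2 change -1.67, SE 0.36, adjusted p = 3.78e-04), ahead of 80.4, 102 and 102 at 24 h and 40.4, 39.3 and 39.5 at 48 h.

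Counts of NUSAP1 and PRC1 are uncertain, because 72.8% and 65.2% of their exon bases are shared, on the same strand, with read-through genes (AC087721.2 and AC068831.7) that have rows of their own. In MYC-ER 24 h replicate 1 the read-through row of NUSAP1 held 27.1 CPM beside 80.4 in its own row. With both rows summed, NUSAP1 read 10.4, 11.1 and 11.5 CPM at 0 h and 4.04, 3.85 and 3.50 at 8 h, and its 8 h change was -1.53 (SE 0.074, adjusted p = 4.27e-14). PRC1, which bundles the central spindle, read 2.88, 3.11 and 3.92 CPM at 0 h and 6.13, 4.11 and 3.37 at 8 h in its own row, which overlap. The PRC1 change at 8 h on the log2 scale was 0.46, with an SE of 0.17 and adjusted p = 0.0251. Summed with its read-through row it read 9.33, 9.76 and 6.74 CPM at 0 h and 13.0, 20.8 and 18.6 at 8 h, a change of 1.02 (SE 0.13, adjusted p = 2.68e-07). Without the sum, the 8 h call of PRC1 was lost without MYC-ER 8 h replicate 1, at 0.18 (adjusted p = 0.330), and without MYC-ER 0 h replicate 1 or 2, as well as with library size as the scaling, with only the groups compared and with GC trends removed. Another 16 of the 54 genes share some exon bases with a neighbour, all but BUB1B on the opposite strand, the largest shares being 35.0% for NCAPG with LCORL and 23.9% for SMC4 with TRIM59.

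Among the genes of anaphase onset, 4 were higher and 1 lower at 8 h (32.2% and 35.4% of all genes), and all 5 were higher at 24 h (median 3.73). CDC20, the activator of the anaphase-promoting complex and the target of the checkpoint, had the largest 8 h rise of the 54 genes, from 0.922, 0.868 and 1.29 CPM to 10.2, 9.36 and 9.35 (log2 change 3.23, SE 0.11, adjusted p = 9.65e-17), and reached 139, 137 and 136 at 24 h. UBE2C, the ubiquitin-conjugating enzyme that primes its substrates, had the largest 24 h rise of the group, with 0.261, 0.352 and 0.374 CPM at 0 h, 1.79, 1.41 and 1.53 at 8 h, 58.1, 59.5 and 59.7 at 24 h and 21.5, 21.8 and 20.3 at 48 h. The UBE2C change at 24 h on the log2 scale was 7.49, with an SE of 0.12 and adjusted p = 7.89e-22. ESPL1, which encodes separase, was at 5.69, 6.02 and 5.87 CPM at 0 h and 25.1, 39.1 and 27.1 at 8 h. The ESPL1 change at 8 h on the log2 scale was 2.38, with an SE of 0.11 and adjusted p = 2.58e-14. PTTG1, which encodes securin, the inhibitor of separase, moved the other way, to 15.8, 12.5 and 14.8 CPM at 8 h from 24.1, 23.7 and 24.6 at 0 h. The PTTG1 change at 8 h on the log2 scale was -0.75, with an SE of 0.12 and adjusted p = 1.52e-05. It had the smallest 24 h rise of the group, to 149, 147 and 151 CPM, with 75.0, 75.3 and 67.9 at 48 h (log2 change 2.63, SE 0.13, adjusted p = 6.62e-14 at 24 h). For both genes the 8 h libraries lay clear of those at 0 h. PTTG1 was also called lower in parental cells at 8 h, a call lost with only the groups compared (adjusted p = 0.0616 by edgeR). The difference between the lines in the 8 h change of PTTG1 did not pass. PTTG1 has near-identical copies (PTTG2, PTTG3P) and UBE2S processed copies, and how reads that match several genes were counted is not given in the sources used here, so both are uncertain.

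Condensin I, which loops chromosome arms, and topoisomerase II alpha, which untangles them, were higher at 24 h (6 of 6, median 4.01), and at 8 h the subunits of condensin moved apart. NCAPH, the kleisin that closes the ring, stood at 0.516, 0.754 and 0.566 CPM at 0 h and 3.14, 3.43 and 3.30 at 8 h (log2 change 2.42, SE 0.089, adjusted p = 4.72e-16), and NCAPG and the ATPase SMC2 were also called higher, by 1.03 and 0.38. The other ATPase, SMC4, was lower at 8 h, at 42.5, 46.1 and 42.5 CPM against 50.7, 56.8 and 50.7 (log2 change -0.27, SE 0.092, adjusted p = 0.0123), and so was NCAPD2, at 28.7, 28.7 and 31.2 against 34.2, 35.2 and 34.3. The NCAPD2 change at 8 h on the log2 scale was -0.23, with an SE of 0.065 and adjusted p = 0.00371. Neither pair overlapped, and the SMC4 call was lost without MYC-ER 0 h replicate 2 (adjusted p = 0.0710). SMC4 had the smallest 24 h rise of the group, to 216, 197 and 206 CPM, with 79.0, 80.4 and 80.3 at 48 h. The SMC4 change at 24 h on the log2 scale was 1.97, with an SE of 0.094 and adjusted p = 5.56e-14. TOP2A had the largest, from 4.14, 4.13 and 4.19 CPM at 0 h and 4.58, 5.12 and 4.12 at 8 h to 359, 331 and 345 at 24 h and 134, 133 and 123 at 48 h. The TOP2A change at 24 h on the log2 scale was 6.37, with an SE of 0.13 and adjusted p = 1.75e-20. Its 0 h and 8 h libraries overlapped.

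PIF1, a helicase of nuclear and mitochondrial DNA, belongs to none of the role groups above, and its level was also highest at 24 h. It stood at 0.186, 0.0567 and 0.163 CPM at 0 h and 0.246, 0.177 and 0.167 at 8 h, which overlap, and then at 21.1, 29.5 and 31.7 at 24 h and 14.0, 13.0 and 13.1 at 48 h. The PIF1 change at 24 h on the log2 scale was 7.66, with an SE of 0.24 and adjusted p = 3.57e-17. At 48 h it had kept the largest rise over 0 h of the 54 genes, 98.7-fold.

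Across the roles, 36 of the 54 genes were called higher and 11 lower at 8 h in MYC-ER cells, where 32.2% of all genes were called higher and 35.4% lower. The median log2 change was 0.72, against -0.10 over all genes. A rise of at least 2-fold was seen for 22 genes, among them CDC20, KIF14, NCAPH, ESPL1, SPC25, UBE2C and AURKB, and the ratios of 8 h to 0 h ran from 0.315 (NUSAP1) to 9.38 (CDC20). For the 2-fold cut, too, the share of all genes is not given here. The 11 called lower were ASPM, CCNA2, CDK1, CENPE, KIF11, KIF4A, NCAPD2, NUSAP1, PTTG1, SMC4 and SPC24. The group means of 15 genes were at their lowest of the 4 times at 8 h, a count for which the share of all genes is not given here. These 15 include CCNB2, CDC25C, KIF22 and NDC80, which did not pass at 8 h. The 3 libraries of each time did not overlap for 35 genes that stood higher and 9 that stood lower at 8 h, as for 34.4% and 39.1% of all genes. All 54 were higher at 24 h than at 8 h (28.4% of all genes), with a median of 4.27. Genes with the CHR letters in a promoter entry (34) had median log2 changes of 0.48, 5.52 and 3.77 after 8, 24 and 48 h. Those with an entry that lacks them (12) had 1.25, 4.85 and 2.97. Of the former, 21 were called higher and 7 lower at 8 h, and of the latter, 7 and 4. The 8 genes with no promoter entry had medians of 0.94, 4.72 and 3.02, and all 8 were called higher at 8 h.

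**Figure D4:**
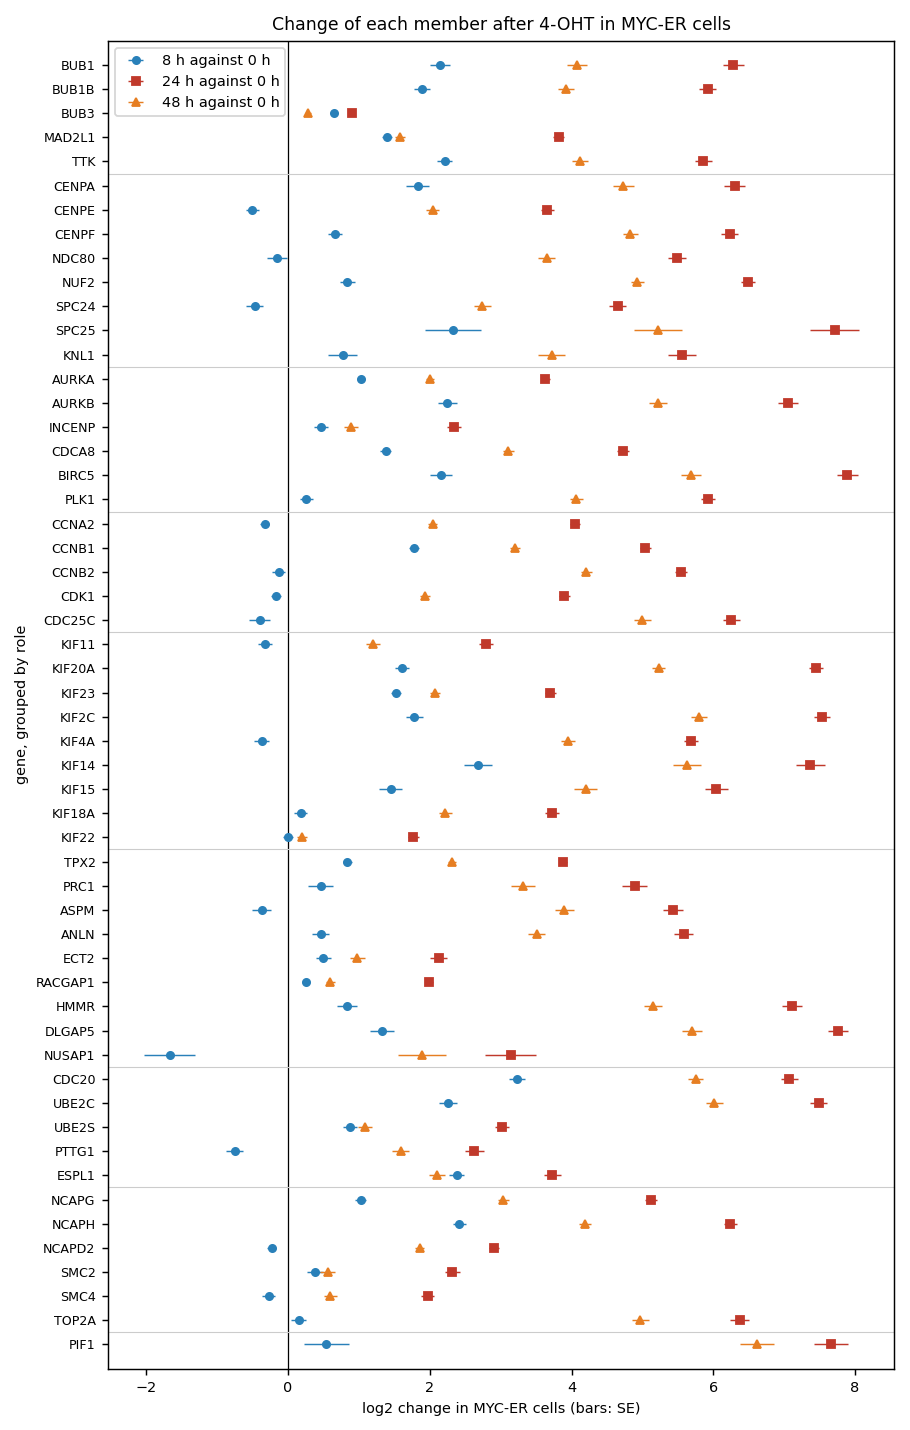
log2 change (x, bars are standard errors) of each of the 54 genes (y, grouped by role) in MYC-ER cells at 8 h (blue circles), 24 h (red squares) and 48 h (orange triangles) against 0 h. The red squares lie between 0.90 and 7.89 and to the right of the orange triangles for every gene, while the blue circles fall on both sides of 0.

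In parental cells the same 4-OHT times brought log2 changes between -0.87 and 0.95, mixed in direction. After 8 h, 18 of the 54 passed as higher and 4 as lower (15.0% and 16.0% of all genes), with a median of 0.10. Libraries of the times did not overlap for 18 genes that stood higher and 3 that stood lower (16.7% and 17.2% of all genes). At 24 h, 30 were higher and 3 lower (21.2% and 21.7%), with a median of 0.25, and at 48 h 9 were higher and 22 lower (20.4% and 20.1%), with a median of -0.12. The largest rise was that of KIF14 at 24 h, from 47.8, 65.0 and 31.3 CPM at 0 h and 70.7, 66.7 and 62.8 at 8 h to 92.2, 91.1 and 94.1 at 24 h (log2 change 0.95, SE 0.14, adjusted p = 2.94e-05), and KNL1 rose likewise, from 23.2, 32.6 and 16.1 CPM at 0 h to 47.6, 42.3 and 44.9 at 24 h. The KNL1 change at 24 h on the log2 scale was 0.91, with an SE of 0.16 and adjusted p = 9.82e-05. In both genes replicate 2 was the highest and replicate 3 the lowest of the 0 h libraries, which spread more than those at 24 h. Called lower at 24 h were UBE2S, from 171, 118 and 181 CPM to 112, 109 and 113 (log2 change -0.49, SE 0.096, adjusted p = 3.02e-04), PTTG1, from 149, 109 and 155 to 94.0, 130 and 95.8 (log2 change -0.37, SE 0.12, adjusted p = 0.0159), and KIF22, from 84.4, 71.0 and 94.0 to 68.5, 66.4 and 71.0. The KIF22 change at 24 h on the log2 scale was -0.28, with an SE of 0.071 and adjusted p = 0.00328. The KIF22 change turned to 0.07 when GC and length trends were removed, and the PTTG1 call was lost without parental 0 h replicate 1 or 3 or parental 24 h replicate 1 or 3. Its libraries overlapped, replicate 2 being the lowest at 0 h and the highest at 24 h. At 48 h the deepest fall was that of SPC24, to 9.99, 10.7 and 10.3 CPM from 20.1, 16.5 and 20.3 (log2 change -0.87, SE 0.10, adjusted p = 5.65e-06), and BIRC5 fell to 45.5, 51.3 and 56.1 CPM from 89.3, 68.9 and 85.6. The BIRC5 change at 48 h on the log2 scale was -0.67, with an SE of 0.10 and adjusted p = 3.91e-05. ECT2 was among the 9 called higher at 48 h, at 72.0, 75.4 and 81.4 CPM against 49.4, 70.5 and 42.4 at 0 h (log2 change 0.50, SE 0.11, adjusted p = 0.00107), a call lost with only the groups compared and with GC trends removed.

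The parental counts of calls depended on the fit. With edgeR fitted to only the groups compared, 1 gene was called higher and 0 lower at 8 h, 1 lower at 24 h, and 0 higher and 14 lower at 48 h. Over all genes, that fit called 628 of 19596 higher and 824 lower at 8 h. The main fit called 3319 and 3551 of 22158 there. Calls over all genes with only the groups compared were 2431 of 19581 lower at 24 h, and 1637 of 19680 higher and 1637 lower at 48 h. With the trend on GC content removed, 6 were higher and 2 lower at 8 h, 5 were lower at 24 h, and 0 were higher at 48 h. Of all 22158 genes, 2820 were then higher and 2768 lower at 8 h, 4211 lower at 24 h and 3889 higher at 48 h. With GC and length trends removed, the sign turned for 5 of the 22 genes called after 8 h, for 4 of 33 after 24 h and for 7 of 31 after 48 h. Leaving out parental 0 h replicate 2 gave 14 higher at 48 h and 6 lower at 24 h, leaving out parental 48 h replicate 3 gave 4 higher at 48 h, and leaving out parental 0 h replicate 1 or parental 8 h replicate 2 gave 2 lower at 8 h. The share of all genes called in these fits is not given here, so whether such moves are particular to these genes cannot be told. The NUSAP1 count in parental 8 h replicate 2, 13.4 CPM against 77.4 and 71.7 in the other replicates, stood beside 58.9 CPM in its read-through row, and the summed value of 72.4 CPM was within the range of the others.

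Set against parental cells at the same time, the MYC-ER levels were far below before 4-OHT, mostly at or above parity at 24 h, and below again at 48 h. At 0 h all 54 genes were lower in MYC-ER cells (32.7% of all genes lower), with a median log2 difference of -4.65 and levels of 0.594% (SPC25) to 60.6% (BUB3) of the parental mean. At 8 h all 54 were still lower (25.5%), at 0.963% (PIF1) to 91.0% (BUB3), with a median of 6.66%. The BUB3 call at 8 h, -0.14 (adjusted p = 0.0117), was lost without parental 8 h replicate 1 (adjusted p = 0.142). The libraries of the 2 lines did not overlap for any of the 54 genes at 0 h or 8 h, as for 32.4% and 31.7% of all genes in this direction.

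At 24 h, 35 genes were higher in MYC-ER cells and 1 lower (23.5% and 25.8% of all genes), and 18 did not pass, with a median of 0.33 and levels of 83.4% (KIF23) to 186% (SPC24) of the parental mean. SPC24 stood at 30.8, 29.2 and 29.3 CPM in MYC-ER and 16.7, 16.1 and 15.3 in parental cells. The SPC24 difference at 24 h on the log2 scale was 0.89, with an SE of 0.10 and adjusted p = 2.52e-07. The libraries of the lines did not overlap for 41 genes higher in MYC-ER cells and 6 lower, as for 29.9% and 30.5% of all genes. KIF23 was the 1 gene called lower, at 66.5, 65.5 and 66.7 CPM against 78.4, 83.7 and 76.1 (log2 difference -0.26, SE 0.067, adjusted p = 0.00249), and this call was lost with library size as the scaling (adjusted p = 0.170), while 3 genes were called lower with only the groups compared. All 5 mitotic cyclin and CDK1 genes and 7 of 9 kinesins were higher, against 2 of 6 in the kinase and passenger group and 4 of 8 at the kinetochore. Among the 18 that did not pass, CDC20 read 139, 137 and 136 CPM in MYC-ER and 143, 151 and 149 in parental cells, and AURKB 36.2, 38.2 and 37.1 and 34.2, 33.1 and 32.6. In neither gene did the libraries of the lines overlap, CDC20 being the lower and AURKB the higher in MYC-ER cells. NUSAP1 and PRC1 were also among the 18, by their own rows. Summed with their read-through rows, they read 108, 102 and 108 CPM and 174, 173 and 174 in MYC-ER cells. The parental sums were 78, 84.4 and 78.1 CPM and 156, 159 and 160.

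At 48 h, 52 of the 54 were lower in MYC-ER cells (29.4% of all genes), with a median of -0.95 and levels of 29.2% (SPC25) to 87.7% (PIF1) of the parental mean. PIF1 read 14.0, 13.0 and 13.1 CPM in MYC-ER and 16.4, 16.9 and 12.3 in parental cells, and was the 1 gene whose libraries overlapped. NUSAP1 did not pass in its own row, at 40.4, 39.3 and 39.5 against 58.6, 57.9 and 65.8, which do not overlap. Summed with its read-through row, NUSAP1 read 40.7, 39.4 and 40.1 CPM in MYC-ER and 60.2, 60.1 and 68 in parental cells. The lower libraries lay clear of the parental ones for 53 genes, as for 33.3% of all genes.

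**Figure D5:**
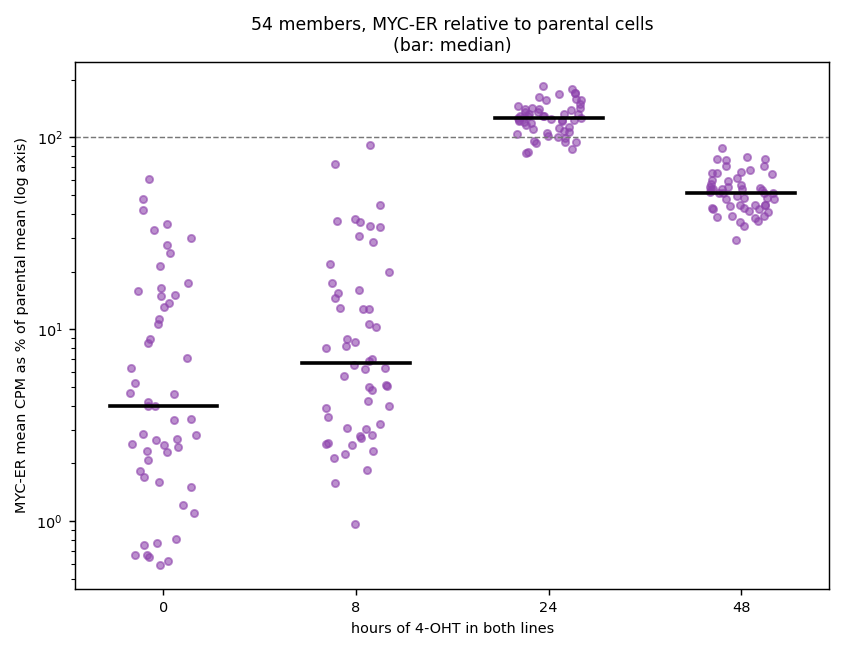
Mean CPM in MYC-ER cells as a percent of the parental mean at the same time (y, log axis) for the 54 genes (points, spread sideways for visibility) at 0, 8, 24 and 48 h of 4-OHT, with the median as a bar and parity dashed. The medians are 3.99%, 6.66%, 126% and 51.6%.

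The difference between the lines in their change from 0 h was tested as an interaction. At 8 h it was positive for 30 genes and negative for 7 (27.3% and 27.8% of all genes), at 24 h positive for all 54 (27.7%), and at 48 h positive for 52 (23.6%), with medians of 0.56, 4.81 and 3.52. The interaction did not pass at 8 h for 17 genes, and for 9931 of all 22158. Among the 17 were ANLN, ECT2, KNL1, RACGAP1 and SMC2, which were called higher at 8 h in both lines. PTTG1 and SPC24, called lower at 8 h in both lines, were also among them. The 7 negative at 8 h were ASPM, CCNA2, CDK1, CENPE, KIF11, NUSAP1 and SMC4. Except NUSAP1, these were the 6 called lower in MYC-ER and higher in parental cells at 8 h. The share of all genes in that class is not given here. With only the groups compared, 21 of the 22 parental calls at 8 h did not pass. In MYC-ER cells the 8 h calls of ASPM, CDK1 and SMC4 were lost in some settings, as given above. CCNA2 went from 55.2, 65.5 and 54.4 to 79.4, 73.7 and 76.6 CPM in parental cells, a rise, while in MYC-ER cells it fell as given above (log2 difference -0.72, SE 0.094, adjusted p = 1.04e-06 for the interaction). The NUSAP1 interaction, -1.39, was lost with only the groups compared and without parental 8 h replicate 1 or 3 (adjusted p = 0.0751 and 0.0636), and with its read-through row added it was -1.68 (adjusted p = 3.92e-12). With the GC trend removed, 12 genes were negative at 8 h, and with GC and length trends removed, 13. Of all 22158 genes, 7510 and 7743 were negative in these fits. SMC2 and SMC4, the ATPase pair of condensin, did not pass at 48 h, where SMC4 read 79.0, 80.4 and 80.3 CPM in MYC-ER and 143, 148 and 157 in parental cells. Interaction and line contrasts share their libraries with the contrasts above.

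Before 4-OHT the levels per exon length ran from 0.0387 CPM per kilobase for SPC25 to 21.0 for PTTG1 in MYC-ER cells and from 2.50 for KNL1 to 120 for PTTG1 in parental cells. At 24 h in MYC-ER cells the lowest was KNL1 at 3.96, the median 21.5 and the highest PTTG1 at 129, followed by CCNB1 at 86.4 and CDC20 at 75.2.

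A further 107 genes of mitosis, in 6 lists, were read in the same way. At 24 h in MYC-ER cells 90 were called higher and 9 lower, where 30.4% and 31.2% of all genes were, with a median of 1.48. Condensin II, the other condensin, had 3 of 3 higher, NCAPG2 by 3.80, NCAPD3 by 1.72 and NCAPH2 by 0.64. Inner centromere and other kinetochore proteins had 28 of 31 higher and 1 lower, the largest rises being HJURP, the chaperone of CENPA, at 7.43 and SKA1, a microtubule coupler, at 6.06, and the 1 lower CENPT at -0.29. Other spindle, centrosome and mitosis genes had 29 of 30 higher, led by NEK2, a centrosome kinase, at 7.77 and MKI67, the Ki-67 antigen, at 7.74, with NUMA1, a spindle pole protein, at -0.44. Of the regulators of G2 and M, 11 of 13 were higher and 1 lower, with PKMYT1, the kinase that restrains CDK1, at 7.79, MYBL2, the MYB of late cell cycle genes, at 7.71, and LIN37, a MuvB subunit, at -0.69.

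Cohesin and the core of the anaphase-promoting complex are also used outside mitosis. Cohesin and its regulators had 10 of 15 higher and 3 lower at 24 h, with a median of 0.77. The highest were ESCO2, an acetyltransferase of cohesin, at 7.08 and SGO1, the protector of centromeric cohesion, at 6.53, and the lowest MAU2, a loader, at -0.34 and ESCO1 at -0.25. The anaphase-promoting complex core had 9 of 15 higher and 3 lower, with a median of 0.34, from ANAPC2 at -0.53 and ANAPC16 at -0.46 to ANAPC1 at 0.84 and ANAPC15 at 0.87. At 8 h 72 of the 107 were higher and 22 lower (32.2% and 35.4% of all genes), with a median of 0.55, and PKMYT1 and MYBL2 rose by 4.83 and 3.51. At 48 h 63 were higher and 14 lower (23.4% and 20.7% of all genes), with a median of 0.38. In parental cells 35 were higher and 11 lower at 8 h (15.0% and 16.0% of all genes). The counts were 59 and 18 at 24 h (21.2% and 21.7%) and 27 and 41 at 48 h (20.4% and 20.1%).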

How the data were processed

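Per the labels' protocols, polyadenylated RNA was made into stranded libraries and read as paired 150-base reads, 3 libraries to a lane, with the lane of each not given. The submitters' processing notes name Trimmomatic 0.39, STAR, StringTie 2.1.3b and GRCh38, with no role or order. The authors deposited 1 table of whole-number counts per gene, and the counting program and its strand setting are not given in the sources used here. Of 60668 genes, 22158 passed edgeR's filterByExpr, and the 24 libraries (8 groups of 3) were fitted together with 1 mean per group by edgeR 4.0.16's quasi-likelihood test in R 4.3.3, with TMM scaling and Benjamini-Hochberg adjustment over all genes tested in each of 15 contrasts. Exon lengths came from the GENCODE annotation and promoters from RefSeq's GRCh38.p14 table.

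The 54 genes and the lists were chosen with earlier results of these data known. Every-library values are given for the members with the largest and smallest 24 h change in each role and for members whose call differed from that of most. In parental cells, where calls were split, counts and examples are given. Same-numbered replicates did not deviate together (84 pairs, r from -0.078 to 0.094), and the main fit did not pair libraries by number. Whether libraries of the same number were handled together is not given in the sources used here. Alternatives were DESeq2 1.42.0, other scalings and filters, only the groups compared, and leaving out each library. GC and length trends and the addition of read-through rows were chosen after seeing the data. With no counts in a library, 3 counts set the upper limit.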

Additional observations from a re-analysis of the deposited data

Results flagged for a closer look

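The change from 0 h differed between the lines by the interaction test for many of the 54 genes. At 8 h it was more positive in MYC-ER cells for 30 and more negative for 7 (27.3% and 27.8% of all genes). The largest positive log2 differences were 3.22 for CDC20, 2.42 for ESPL1 and 2.30 for NCAPH, and the largest negative ones -1.39 for NUSAP1, -0.83 for CENPE and -0.72 for CCNA2. At 24 h it was positive for 54 (27.7% of all genes), from 8.08 for BIRC5, 7.87 for PIF1 and 7.63 for UBE2C down to 1.31 for SMC4, 1.29 for ECT2 and 0.75 for BUB3. At 48 h it was positive for 52 (23.6% of all genes), with 7.04 for PIF1, 6.56 for UBE2C and 6.36 for BIRC5 at the top, and among those that passed, 0.72 for RACGAP1, 0.49 for ECT2 and 0.23 for BUB3 at the bottom. Each line's own 0 h libraries enter its side of the difference.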

How the results depend on the processing

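All 54 genes were called higher in MYC-ER cells at 24 h against 0 h in each setting that leaves out 1 library. With edgeR fitted to only the groups compared, parental calls came to 1 higher and 0 lower at 8 h, 1 lower at 24 h, and 0 higher and 14 lower at 48 h, and 3 genes were lower in the MYC-ER line than in the parental line at 24 h. Over all genes, the parental calls at 8 h came to 628 higher and 824 lower of 19596 in that fit. Of 19738 genes, 5893 were lower in the MYC-ER line at 24 h. DESeq2 over all libraries called 22 higher and 4 lower at 8 h and 9 higher and 24 lower at 48 h in parental cells. Of all 22158 genes, it called 3905 higher and 3682 lower at 8 h and 4665 higher and 4714 lower at 48 h. With a GC trend removed, parental calls were 6 higher and 2 lower at 8 h, 5 lower at 24 h and 0 higher at 48 h, and 12 interactions at 8 h were negative. Of all 22158 genes, 2820 were higher and 2768 lower in parental cells at 8 h in that fit, and 7510 interactions were negative. With GC and length trends removed, 10 were higher at 8 h and 0 at 48 h, and 13 interactions were negative. Of all 22158 genes, 3094 were then higher in parental cells at 8 h and 3822 at 48 h, and 7743 interactions were negative. With library size alone, 0 of the 54 genes were lower in the MYC-ER line at 24 h, against 4371 of all 22158 genes. Leaving out 1 library gave 2 to 5 lower in parental cells at 8 h, 2 to 6 lower at 24 h and 4 to 14 higher at 48 h. Calls over all genes with 1 library left out are not given here. With the GC trend removed, the sign turned for 1 of 22 parental calls after 8 h, for 4 of 33 after 24 h and for 3 of 31 after 48 h, and with GC and length trends removed for 5, 4 and 7. Among the results given by gene, it turned for PLK1 at 8 h (-0.01 with GC and length trends removed), for its interaction at 8 h (-0.04 with the GC trend, -0.21 with both), for KIF22 in parental cells at 24 h (0.07 with both) and for KIF14 in parental cells at 48 h (-0.04 with both). The cause of these moves was not tested. Library size alone moved the median of all genes by up to 0.206, at 24 h against 8 h in MYC-ER cells, and the share of calls that were higher there from 51.2% to 67.8%. Same-numbered libraries did not deviate together, and 10 of 24 lay closest to their own number. With the replicate block, CDK1 at 8 h (-0.17, adjusted p = 0.0560 by edgeR) and the PLK1 interaction at 8 h (0.29, adjusted p = 0.0536 by edgeR) lost their calls, as did 1 of 31 parental calls at 48 h. Depth limits the lowest genes before 4-OHT, such as SPC25 (mean 0.0524 CPM in MYC-ER cells), PIF1 (0.135), CENPA (0.244) and CDC25C (0.267).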
